A study of Mus musculus with 4 samples.

Results

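The collagen genes of the mouse cochlea were measured by RNA sequencing in sorted hair cells (HC) and non-hair cells (NHC), with and without gentamicin, an aminoglycoside antibiotic that damages hair cells. They were chosen by symbol alone, as every gene named Col, a type number, a and a chain number, which gave 44 of the 23420 genes listed. Of these, 43 had at least 100 reads over the 12 libraries and entered the tests, in a fit of 16077 genes. The remaining member, Col10a1, a collagen of hypertrophic cartilage, had 65 reads in total and was not tested. Because the reads were summed over both populations, a gene could enter through NHC alone, as did Col6a5, with 0 to 2 reads per HC library. Such a gene can only come out lower in HC, and a fall there after gentamicin could hardly show.

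All 4 groups came from cochleae of Atoh1-GFP transgenic CD1 mice at postnatal day 1, in which an Atoh1 enhancer drives GFP in hair cells. The organs were kept overnight in low oxygen in a medium with N2 supplement and penicillin. HC control and NHC control received no gentamicin, and HC gentamicin and NHC gentamicin received 0.5 mM for 3 h. The tissue was then dissociated with trypsin and collagenase and sorted into GFP-positive cells (HC) and GFP-negative cells (NHC), with weakly fluorescent cells gated out. NHC are therefore a mixture of the other epithelial cells and the tissue around them. Each group had 3 biological replicates of many pooled cells, so p-values measure the spread between such pools.

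Collagens are proteins, most of them secreted and some transmembrane, in which 3 chains wind into a triple helix. Fibrillar chains (types I, II, III, V, XI, XXIV and XXVII) assemble into fibrils, and FACIT collagens attach to the surface of such fibrils. Type IV collagens form the mesh of basement membranes, and type VI collagens form beaded filaments around cells. In the cochlea, collagens of types II, IX and XI are known from cartilage and from the tectorial membrane, the sheet that covers the hair bundles, and type IV collagens from the basement membranes of the epithelium and of blood vessels.

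The values deposited for each gene are scores, which are reads scaled per library with an offset of 1, and are not divided by gene length. Reads on genes numbered 22400368 to 28151828 per library. The 9 hair cell markers summed to scores of 11070.2 to 11503 in HC control and 203 to 239.98 in NHC control. Among the HC libraries, HC control replicate 2 stood apart. Its level of 14 mesenchyme markers (genes such as Pou3f4, Tbx18 and Twist1) had a median of 6.98% of the NHC level, against 3.80% and 5.03% in the other HC control libraries and 1.90% to 2.60% in HC gentamicin. The markers were not uniform. Among the HC control libraries, Pdgfra and Snai2 were lowest in replicate 2 (72.8% and 4.74%), and Tbx15 and Lum were highest in replicate 3 (14.3% and 19.2%). Counts of collagens and list genes called after gentamicin are also given without HC control replicate 2. In bulk RNA of sorted cells, fewer cells of a type and less RNA per cell cannot be told apart.

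The first question was where collagen genes were expressed without drug. Collagens took 2.62% to 3.04% of the reads on genes in NHC control and 0.520% to 0.664% in HC control. Of the 43 tested, 37 were lower in HC than in NHC and 3 were higher (limma, Benjamini-Hochberg adjusted p under 0.05), while 42.2% of all tested genes were lower and 31.9% higher. The median log2 fold change was -2.39 over the collagens and -0.12 over all tested genes. Scaling by the median of ratios moved the median of all genes to -0.01 and that of the collagens to -2.26. The plot of control levels gives each replicate.

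**Figure D1:**
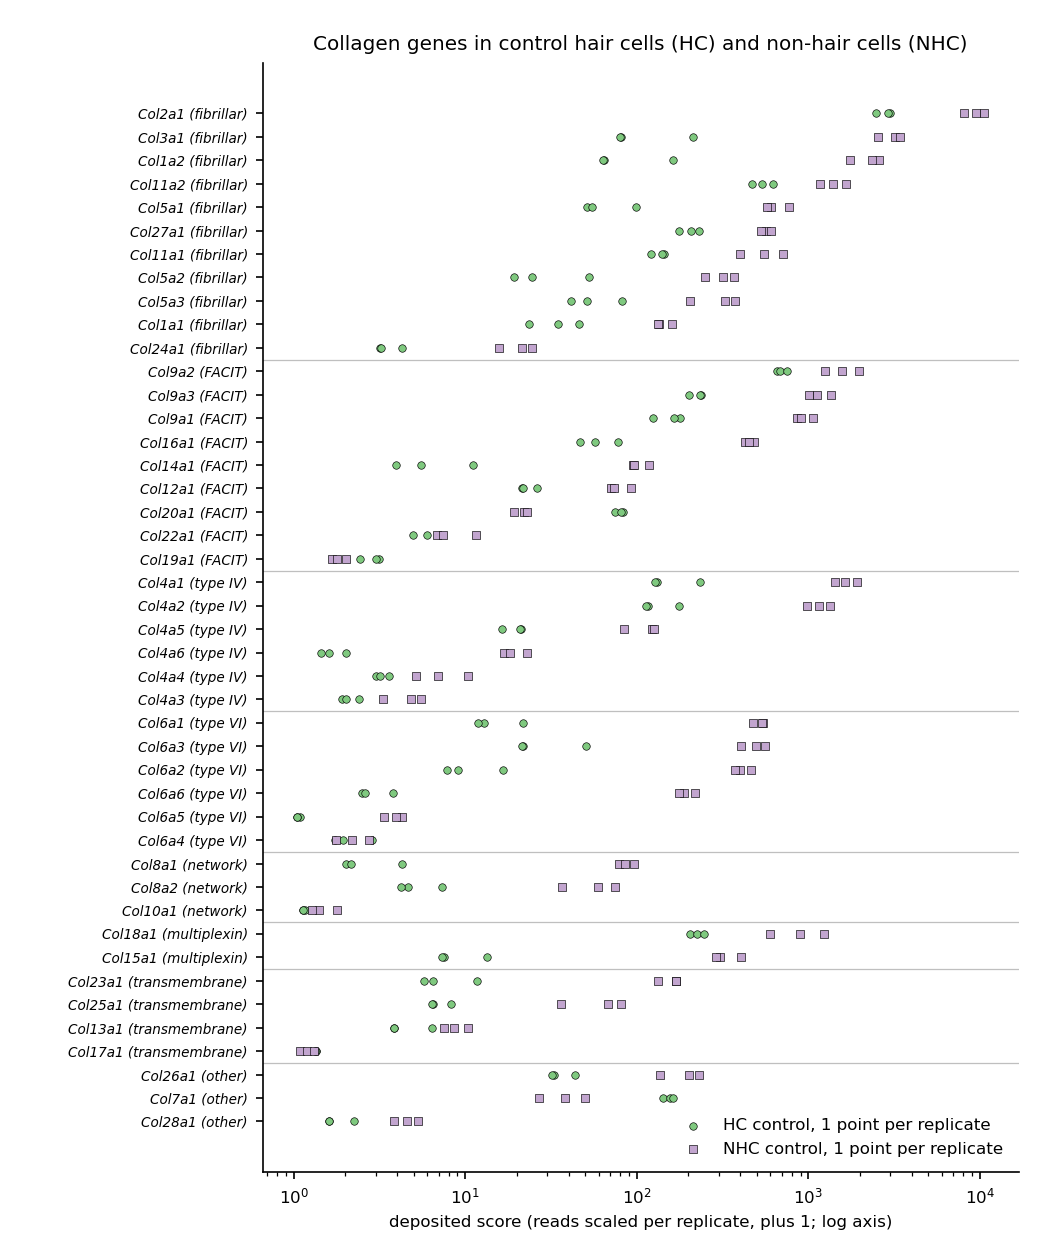
Deposited scores (log axis) of the 44 collagen genes, grouped by class, in HC control (circles) and NHC control (squares), 1 point per replicate. HC points lie to the left of NHC points for most genes, by the widest gap for Col6a6. They lie to the right for Col7a1, Col20a1, Col19a1 and, close to the offset, Col17a1.

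By merged exon or by coding length, the same 10 collagens were the highest per kb in NHC control. Per kb of merged exons, Col2a1, the single chain of type II collagen and the main fibril of cartilage, came first in both populations, with a mean level of 1015 in NHC control and 303 in HC control. Its scores were 8048, 9516 and 10581 in NHC control and 2489.6, 3006 and 2896 in HC control, and the groups did not overlap. HC were 3.34-fold lower (log2 fold change -1.74 ± 0.26 SE, adjusted p = 7.00e-05 by limma). Col2a1 alone took 30.1% to 34.6% of the collagen reads in NHC control and 44.0% to 46.4% in HC control.

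The cartilage chains also include type IX collagen, a FACIT on type II fibrils, and type XI collagen, which sits inside them. Col9a2, which ranked 2 per kb in NHC control, scored 1257, 1571 and 1967 in NHC control and 659, 686 and 754 in HC control (adjusted p = 0.000247 by limma). Its partner chains Col9a3 and Col9a1 scored 1163 ± 182 and 945 ± 107 in NHC control (SD, n = 3) and 224 ± 19.0 and 156 ± 28.0 in HC control. HC thus held 43.7% of the NHC level of Col9a2, but 19.2% of Col9a3 and 16.4% of Col9a1. Col11a2 scored 1169, 1393 and 1659.5 in NHC control and 469, 537 and 625 in HC control, which is 38.6% of the NHC level. Col11a1 was at 24.2% and Col27a1, a minor fibrillar chain of cartilage, at 36.0%. All of these chains were lower in HC in the test.

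The fibrillar chains of loose and dense connective tissue were more unequal. Col3a1, the chain of type III collagen, scored 3188, 3418 and 2561 in NHC control and 80.8, 213 and 79.8 in HC control. Col1a2, a chain of type I collagen, scored 2579, 2353 and 1744 in NHC control and 64.5, 162 and 63.2 in HC control. Both groups were far apart for both genes, and HC control replicate 2 was the high one of its group. The fitted differences were 27.3-fold for Col3a1 and 25.2-fold for Col1a2 (adjusted p = 1.91e-07 and 4.16e-07 by limma). Per kb of merged exons, Col3a1 ranked 3 in NHC control and 12 in HC control, and Col1a2 8 and 17. By coding length, Col3a1 ranked 3 and 9, and Col1a2 5 and 13. The other type I chain, Col1a1, had a much lower score in NHC, 143 ± 15.7, and was at 23.8% of that level in HC. Whether this low score reflects the RNA level of Col1a1 was not tested.

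Type IV chains of basement membranes were lower in HC for 6 of 6 members. Col4a1 scored 1426, 1916 and 1641 in NHC control and 131, 233 and 128 in HC control, and Col4a2 scored 978, 1336 and 1146 against 116, 177 and 113. These chains, which form the common type IV network, were at 9.81% and 11.6% of the NHC level. Col4a3 and Col4a4, the chains of the network found in mature basement membranes, were rare in NHC (4.57 ± 1.14 and 7.46 ± 2.63) and stood at 31.2% and 34.7% in HC. Col4a5 was at 16.8% and Col4a6 at 3.75%.

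Of the type VI filament genes, Col6a6 and Col6a2 had the widest fitted gaps of all collagens, on scores that include the offset. With the offset removed, Col8a1 and Col6a5 stood at 2.12% and 2.14% of the NHC level, lower than Col6a2 at 2.46%. Col6a1, Col6a2, Col6a3 and Col6a6 scored 519 ± 38.4, 413 ± 45.7, 487 ± 75.7 and 194 ± 22.3 in NHC control. In HC control they scored 15.5 ± 5.49, 11.2 ± 4.76, 31.3 ± 16.9 and 2.97 ± 0.704. The fitted differences were 34.8-fold, 39.0-fold, 16.8-fold and 66.3-fold, and the adjusted p of Col6a6 was 2.57e-11 by limma. Col6a5 had 62 to 79 reads per library in NHC control and 1 or 2 in HC control. Col6a4 had 19 to 45 and 17 to 40, with overlapping groups and an adjusted p of 0.866 by limma.

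Most of the multiplexins, network and transmembrane collagens were also lower in HC. Col18a1, a basement membrane multiplexin that carries the endostatin sequence, was among the 10 highest per kb in NHC control, with scores of 598, 897 and 1239, and scored 205, 224 and 245 in HC control. Its relative Col15a1 was 36.4-fold lower in HC, and Col8a1, a network-forming chain, 32.7-fold. Of the transmembrane collagens, Col23a1 was 20.6-fold lower and Col25a1 8.35-fold, and Col13a1 was 1.91-fold lower with an adjusted p of 0.0315. Col13a1 was called in 2 of 6 fits that left out a replicate, and without HC control replicate 2 the number of collagens lower in HC was 36.

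Col7a1, Col20a1 and Col19a1 went the other way. Col7a1, the chain of the anchoring fibrils that tie an epithelium to its stroma, scored 142, 155 and 162 in HC control and 26.8, 38.1 and 49.8 in NHC control, and was 4.13-fold higher in HC (log2 fold change 2.05 ± 0.24 SE, adjusted p = 1.06e-05 by limma). Col20a1, a FACIT, scored 74.7, 83.5 and 80.8 against 19.3, 22.1 and 23.0 and was 3.72-fold higher (1.90 ± 0.25 SE, adjusted p = 2.90e-05). No replicates of the 2 groups overlapped for either gene. In HC control they ranked 11 and 10 of the 44 per kb of merged exons, and 15 and 14 per kb of coding length. In NHC control they ranked 32 and 31 by either length. Col19a1 was 1.57-fold higher in HC, on 33 to 50 reads per library. Col17a1, a transmembrane collagen of hemidesmosomes, had 7 or 8 reads per HC control library and 2 to 8 in NHC control, and Col22a1 scored 6.03 ± 1.08 and 8.57 ± 2.56, and neither was called.

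The promoters of the HC-higher pair are shown because they stand against the direction of the family. They are RefSeq sequences of GRCm38.p6, the build of the mm10 alignments, from 250 bases before to 50 after the start. Capitals mark 3 short motifs, searched on both strands. The first is the TATA box, searched as the letters TATAAA. The second is the box named for its letters, CCAAT. The third is the GC box, searched as the letters GGGCGG. None of them overlapped another in the windows printed here. The Col7a1 promoter lies at chr9:108953336-108953635 and that of Col20a1 at chr2:180986285-180986584, both on the plus strand.
Col7a1: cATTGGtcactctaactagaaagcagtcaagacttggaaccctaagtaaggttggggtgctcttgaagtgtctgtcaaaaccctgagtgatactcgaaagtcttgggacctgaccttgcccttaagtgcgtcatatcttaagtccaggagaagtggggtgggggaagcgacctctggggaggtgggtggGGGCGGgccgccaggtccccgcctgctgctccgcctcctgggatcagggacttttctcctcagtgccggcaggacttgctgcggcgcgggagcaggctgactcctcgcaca
Col20a1: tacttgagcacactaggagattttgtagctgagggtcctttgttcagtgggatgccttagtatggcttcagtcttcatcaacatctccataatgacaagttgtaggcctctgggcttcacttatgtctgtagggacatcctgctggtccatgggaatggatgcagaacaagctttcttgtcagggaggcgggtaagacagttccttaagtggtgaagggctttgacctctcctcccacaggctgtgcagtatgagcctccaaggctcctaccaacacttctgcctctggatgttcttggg
The Col7a1 window held 1 CCAAT box and 1 GC box, and the Col20a1 window held none of the 3 motifs. Promoters were matched for 35 of the 44 collagens, 38 promoters in all. A GC box was found in 60.5% of these and in 35.7% of all 32851 promoters, a CCAAT box in 34.2% and 37.4%, and a TATA box in 13.2% and 13.6%. The median GC content was 59.8% over the collagen promoters and 52.7% over all.

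The levels of many collagens in HC could be set beside the mesenchyme markers. In HC control, 9 collagens (Col3a1, Col4a6, Col6a1, Col6a2, Col6a5, Col6a6, Col8a1, Col15a1 and Col23a1) stood at or under the marker median of the same library in all 3 libraries, at mean levels of 1.02% to 4.47% of NHC. Col1a2, Col6a3 and Col14a1 were above it in some libraries only. The other 31 were above it in all 3, from 7.89% for Col8a2 to 409% for Col7a1. The markers themselves ranged widely, with means from 2.61% to 81.0% of NHC. Markers of supporting cells were at 134% to 143% of NHC in HC control, by the median of 8 genes, and those of the tectorial membrane at 46.2% to 63.0%.

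**Figure D2:**
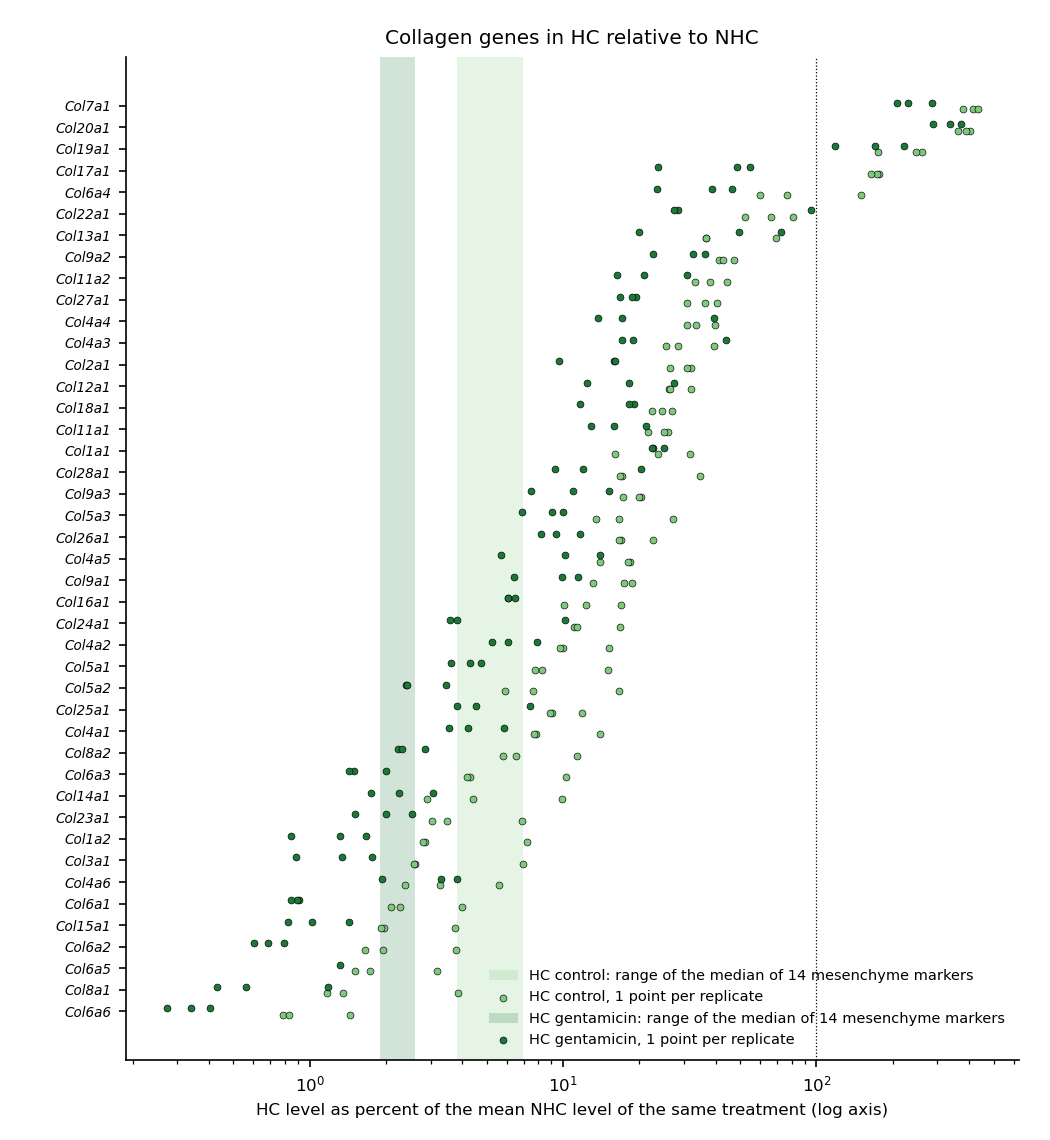
HC level of 43 collagen genes as percent of the mean NHC level of the same treatment, with the offset removed (log axis), 1 point per HC replicate. The shaded bands span the medians of 14 mesenchyme markers, 3.80% to 6.98% in HC control and 1.90% to 2.60% in HC gentamicin, and 2 gentamicin replicates of Col6a5 without reads are not drawn.

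The main question of the study was what gentamicin did within 3 h. In HC, 22 of the 43 collagens fell and 0 rose (limma, adjusted p under 0.05), while 18.4% of all tested genes were called lower and 14.8% higher. With scaling by total reads, 18 fell and 0 rose, against 12.2% and 19.8% of all tested genes. The log2 fold change was below 0 for 42 collagens, with a median of -0.66 against -0.09 for all genes, and it was above 0 for Col13a1 alone (0.52 ± 0.35 SE, adjusted p = 0.284). At the unadjusted threshold of 0.05 the count of collagens in either direction was 28, against 44.2% of all tested genes. Under the criteria of the study, an unadjusted p under 0.01 and a fold over 1.2, 19 fell and 0 rose, and 14.8% and 12.7% of all tested genes were called lower and higher. Of all tested genes, 33.1% had all gentamicin replicates below all control replicates and 21.7% above, and of the 43 collagens 26 and 0. Without HC control replicate 2, 27 collagens and 36.1% of all tested genes had all gentamicin replicates below. As a share of reads on genes, collagens went from 0.520% to 0.664% in HC control to 0.273% to 0.430% in HC gentamicin.

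In NHC, no collagen passed the adjusted threshold, with 0 called higher and 0 lower by limma, where 0.236% and 0.106% of all tested genes were. At an unadjusted p under 0.05 the count was 3, against 17.1% of all tested genes. Under the criteria of the study 1 collagen, Col17a1, was called higher and 0 lower, with 3.18% and 2.26% of all tested genes. All gentamicin replicates lay above all control replicates for 5 collagens (Col6a1, Col8a1, Col13a1, Col17a1 and Col23a1) and below them for 0, against 10.1% and 7.68% of all tested genes. The median log2 fold change was 0.10, and the lowest adjusted p was 0.119.

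**Figure D3:**
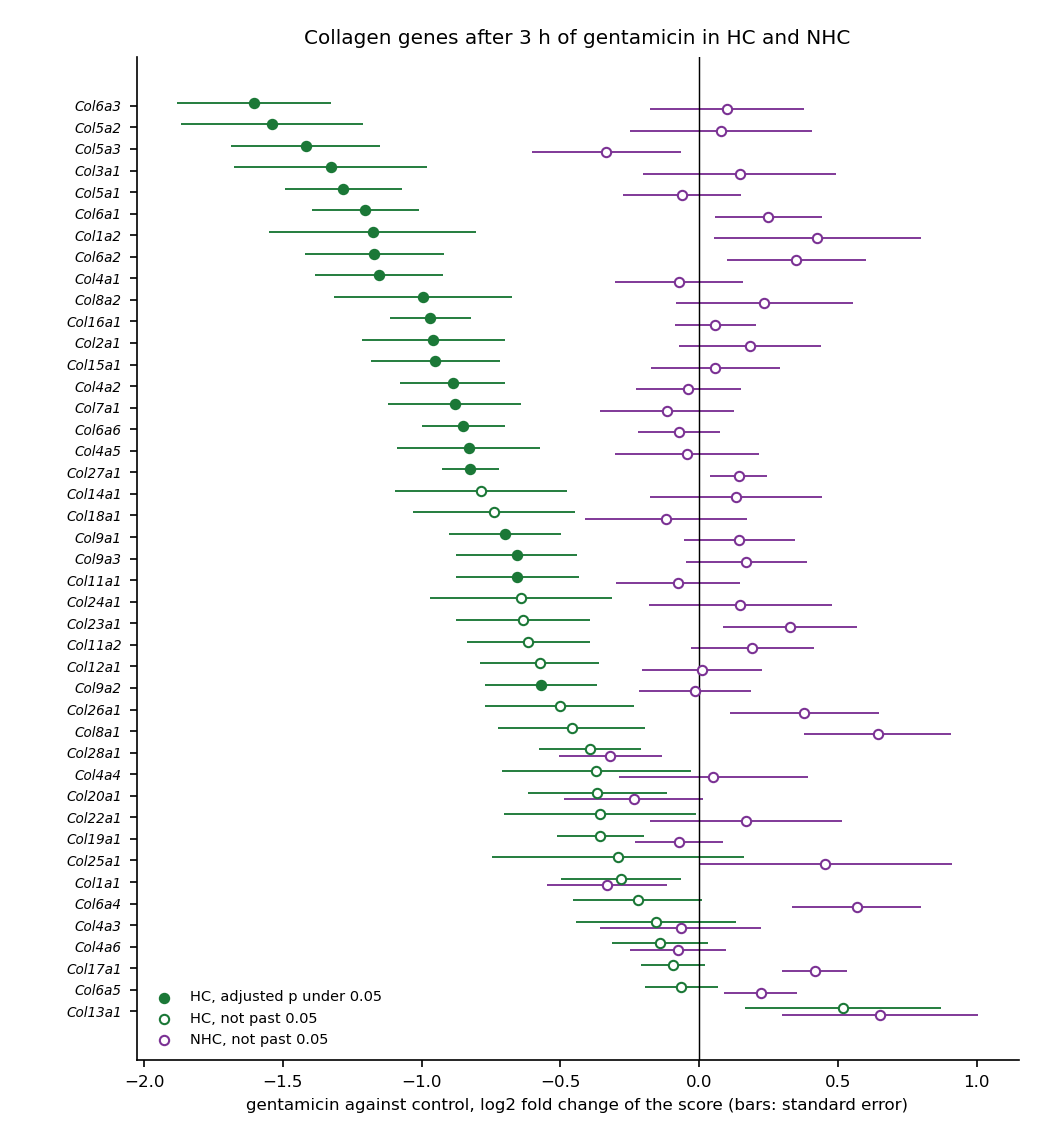
Log2 fold change of the score, gentamicin against control, with its standard error for 43 collagen genes in HC (green) and NHC (purple), ordered by the change in HC; filled points passed an adjusted p of 0.05. HC values lie left of 0 for every gene but Col13a1, and NHC values run from -0.33 to 0.65 with no filled point.

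Among the fibrillar chains, 8 of 11 fell in HC, and 5 without HC control replicate 2. The 3 type V chains, which help to start fibrils and set their width, were among those with the largest changes. Col5a1 went from 51.4, 98.8 and 54.8 in HC control to 23.3, 27.4 and 30.4 in HC gentamicin, a 2.43-fold decrease (log2 fold change -1.28 ± 0.21 SE, adjusted p = 0.00117 by limma). Col5a2 went from 19.3, 52.9 and 24.6 to 9.04, 9.08 and 12.5, and Col5a3 from 41.6, 82.3 and 51.0 to 17.0, 22.0 and 24.3. HC control replicate 2 was the highest library for each, and the groups did not overlap with or without it. The decreases of Col5a2 and Col5a3 were 2.91-fold and 2.67-fold (adjusted p = 0.00487 and 0.00250).

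Col3a1 and Col1a2 had the same high library. Col3a1 went from 80.8, 213 and 79.8 to 31.0, 46.4 and 60.4 (2.51-fold lower, adjusted p = 0.0137 by limma), and Col1a2 from 64.5, 162 and 63.2 to 26.7, 41.1 and 52.0 (2.26-fold lower, adjusted p = 0.0320). Without HC control replicate 2 Col1a2 was no longer called. Col1a1, the other type I chain, scored 34.7 ± 11.2 and 27.6 ± 1.63, with overlapping groups and an adjusted p of 0.345 by limma. The limit on its score given above applies here too.

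Chains of the cartilage fibril also fell, and here HC gentamicin replicate 2 was the lowest library each time. Col2a1 went from 2489.6, 3006 and 2896 to 1696, 1026 and 1703 (1.94-fold lower, log2 fold change -0.96 ± 0.26 SE, adjusted p = 0.0153 by limma). Col11a1 went from 120.4, 144 and 139 to 83.0, 67.7 and 110.5 (adjusted p = 0.0424). The type IX chains that decorate these fibrils were alike in size of change. Col9a1 went from 124, 178 and 165 to 105, 67.7 and 121, Col9a2 from 659, 686 and 754 to 511, 356 and 572, and Col9a3 from 202, 236 and 233 to 144, 98.7 and 199. Their decreases were 1.62-fold, 1.49-fold and 1.58-fold (adjusted p = 0.0208, 0.0487 and 0.0378). Col11a2, at 337, 263 and 496 in HC gentamicin, lay just outside the threshold (adjusted p = 0.0519), as did Col12a1 (0.0601). Of the cartilage chains called here (Col2a1, Col9a1, Col9a2, Col9a3 and Col11a1), none was called without HC control replicate 2 or without HC gentamicin replicate 2.

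Col27a1 and Col16a1 had the 2 lowest adjusted p of the collagens in HC. Col27a1 scored 175, 206 and 229.9 in HC control and 105, 122 and 117 in HC gentamicin (1.77-fold lower, log2 fold change -0.82 ± 0.10 SE, adjusted p = 0.000246 by limma). Col16a1, a FACIT, scored 46.7, 77.7 and 56.8 and then 29.6, 29.6 and 31.4 (1.96-fold lower, -0.97 ± 0.15 SE, adjusted p = 0.000689). Both were called in 10 of 10 other settings and in 6 of 6 fits that left out a replicate, as were Col4a1, Col4a2, Col5a1, Col5a2 and Col5a3. Only these 2 were also called in every setting and fit of the difference between populations given further on. Their promoters are shown for that reason, both on the plus strand, at chr4:63215162-63215461 for Col27a1 and chr4:130047590-130047889 for Col16a1. The genes span chr4:63214004-63334991 and chr4:130047840-130099283.
Col27a1: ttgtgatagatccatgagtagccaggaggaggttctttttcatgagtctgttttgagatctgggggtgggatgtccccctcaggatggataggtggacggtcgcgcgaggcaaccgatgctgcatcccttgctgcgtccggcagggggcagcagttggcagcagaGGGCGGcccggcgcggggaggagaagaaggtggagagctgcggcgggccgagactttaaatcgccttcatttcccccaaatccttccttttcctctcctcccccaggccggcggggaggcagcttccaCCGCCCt
Col16a1: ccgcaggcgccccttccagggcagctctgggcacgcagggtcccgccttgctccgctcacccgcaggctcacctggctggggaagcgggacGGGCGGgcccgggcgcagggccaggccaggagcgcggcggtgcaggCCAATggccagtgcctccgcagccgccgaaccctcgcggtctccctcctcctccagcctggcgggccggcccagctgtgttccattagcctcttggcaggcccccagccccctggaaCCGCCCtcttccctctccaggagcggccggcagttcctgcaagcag
Each window held 2 GC boxes and no TATA box, and that of Col16a1 also held a CCAAT box.

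The type IV chains Col4a1 and Col4a2 lie head to head on chromosome 8, with starts 21 bases apart, and fell together. Col4a1 went from 131, 233 and 128 to 56.6, 67.2 and 93.0 (2.23-fold lower, log2 fold change -1.15 ± 0.23 SE, adjusted p = 0.00334 by limma). Col4a2 went from 116, 177 and 113 to 59.7, 68.8 and 88.8 (1.85-fold lower, -0.89 ± 0.19 SE, adjusted p = 0.00492). Their windows share 78 bases. That of Col4a1 is on the minus strand at chr8:11312777-11313076, and that of Col4a2 on the plus strand at chr8:11312555-11312854.
Col4a1: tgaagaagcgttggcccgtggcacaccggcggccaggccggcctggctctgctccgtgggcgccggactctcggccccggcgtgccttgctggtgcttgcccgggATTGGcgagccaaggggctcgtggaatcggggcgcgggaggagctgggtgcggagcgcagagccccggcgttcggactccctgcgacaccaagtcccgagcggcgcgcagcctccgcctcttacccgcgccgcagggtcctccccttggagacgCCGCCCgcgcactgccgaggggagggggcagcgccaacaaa
Col4a2: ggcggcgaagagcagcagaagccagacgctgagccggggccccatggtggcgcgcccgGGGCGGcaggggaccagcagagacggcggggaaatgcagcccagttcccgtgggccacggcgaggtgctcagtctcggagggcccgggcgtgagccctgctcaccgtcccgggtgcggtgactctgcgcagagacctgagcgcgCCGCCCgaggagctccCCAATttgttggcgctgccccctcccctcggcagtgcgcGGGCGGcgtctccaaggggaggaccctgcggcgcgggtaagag
The 2 windows held 1 and 3 GC boxes and 1 CCAAT box each, and had a GC content of 74.0% and 73.7%. The GC box of Col4a1 lies in the shared bases and is also 1 of the 3 of Col4a2, read on the other strand. Of the 2 other head-to-head pairs of type IV genes, only Col4a5 was called. Col4a5 went from 16.4, 21.2 and 20.9 to 11.7, 7.03 and 15.7 (adjusted p = 0.0296), while its neighbour Col4a6, whose start lies 1309 bases away on the X chromosome, scored 1.43, 2.03 and 1.60 and then 1.66, 1.34 and 1.57 (adjusted p = 0.572). Col4a3 and Col4a4, with starts 72 bases apart on chromosome 1, had adjusted p of 0.716 and 0.437.

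The largest decrease of a called collagen was that of a type VI chain. Col6a3 went from 21.8, 50.8 and 21.3 to 8.75, 11.4 and 8.41 (3.04-fold lower, log2 fold change -1.61 ± 0.28 SE, adjusted p = 0.00152 by limma). Col6a1 went from 12.8, 21.8 and 11.8 to 6.65, 6.52 and 6.24, and Col6a2 from 9.03, 16.6 and 7.82 to 4.22, 5.23 and 4.67. Col6a6 went from 2.52, 3.78 and 2.61 to 1.74, 1.62 and 1.50, close to the offset of 1. The HC gentamicin libraries were closely spaced and all lay below the control libraries. Adjusted p were 0.000974, 0.00489 and 0.00167 for Col6a1, Col6a2 and Col6a6, and 4 of 6 members fell in all. All 4 were called without HC control replicate 2.

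Among the rest, 3 more passed. Col15a1 went from 7.51, 13.4 and 7.31 to 3.80, 4.51 and 5.92 (adjusted p = 0.00984 by limma), and Col8a2 from 4.65, 7.33 and 4.23 to 2.48, 2.89 and 2.53 (adjusted p = 0.0340). Col7a1, one of the genes higher in HC than in NHC, went from 142, 155 and 162 to 79.8, 72.6 and 99.0 (1.84-fold lower, adjusted p = 0.0165), and at 241% of NHC it was still above that level. Col20a1 went from 74.7, 83.5 and 80.8 to 63.0, 69.2 and 54.0, with groups that did not overlap but an adjusted p of 0.285. Col18a1 scored 160.0, 98.6 and 153 in HC gentamicin, all below its control replicates, with an adjusted p of 0.0716. None of the 4 transmembrane collagens was called. In fits that left out a replicate, Col7a1 was called in 3 of 6, Col8a2 in 1 and Col4a5 in 2.

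Markers of some other cells were also lower after gentamicin. Without HC control replicate 2, 13 collagens fell (Col3a1, Col4a1, Col4a2, Col5a1, Col5a2, Col5a3, Col6a1, Col6a2, Col6a3, Col6a6, Col15a1, Col16a1 and Col27a1), where 10.8% of all tested genes did, and without HC gentamicin replicate 2 the count was 14. The 14 mesenchyme markers summed to 379.9 to 429 in HC control and 289 to 325 in HC gentamicin, and 2 of the 14 fell, where 18.4% of all tested genes did. The 5 pericyte markers summed to 33.7 to 59.0 and then 14.1 to 19.9 (3 fell), the 6 endothelial markers to 13.4 to 23.9 and then 7.21 to 12.9 (2 fell). The 8 supporting cell markers summed to 1714 to 2062 and then 821 to 1509 (3 fell), and the 5 glia markers to 171 to 221 and then 79.2 to 143 (3 fell). The 9 hair cell markers summed to 9318 to 10426 in HC gentamicin, and none was called. The 5 tectorial membrane markers summed to 2287 to 2976 and then 1122 to 2825, the lowest being HC gentamicin replicate 2, and none was called. The 7 macrophage markers summed to 3.73 to 4.65 and then 4.49 to 6.39, with none called, and the 5 melanocyte markers to 12.7 to 15.8 and then 11.2 to 12.5 (1 fell). Without HC control replicate 2, 3 pericyte, 2 supporting cell and 1 melanocyte marker fell, and 0 of the mesenchyme, endothelial and glia markers. In a fit where each HC library first lost its mesenchyme marker share of the NHC score, 9 collagens fell: Col2a1, Col4a1, Col4a2, Col5a1, Col5a2, Col5a3, Col7a1, Col16a1 and Col27a1. Some of the others had a log2 fold change in that fit close to or beyond the one without subtraction, but were not called, as Col6a3 (-1.93 ± 0.71 SE), Col8a2 (-1.04 ± 0.37 SE) and Col4a5 (-0.74 ± 0.33 SE). That of Col5a2 was -2.51, against -1.54 without subtraction. Some of these values depend in part on the floor that the subtraction sets. It left Col6a3 at the offset in every HC gentamicin library and in HC control replicate 3. Col8a2 was left there in HC gentamicin replicate 3, and Col5a2 in HC gentamicin replicate 2. After the subtraction Col3a1, Col6a1, Col6a2, Col6a5, Col6a6, Col8a1 and Col15a1 had no level above the offset in either HC group. The percent of all tested genes called lower after the subtraction, or without HC gentamicin replicate 2, is not given here. The counts of collagens in those fits therefore do not by themselves set collagens apart from other genes. The part of pericytes, endothelial cells, glia and supporting cells in these decreases was not tested.

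Whether the response differed between the populations was tested directly. The difference of the log2 fold changes, HC minus NHC, was below 0 and past the threshold for 9 collagens and above it for 0 (limma, adjusted p under 0.05), while 6.57% and 6.85% of all tested genes were called lower and higher. The 9 were Col4a1, Col5a1, Col5a2, Col6a1, Col6a2, Col6a3, Col6a6, Col16a1 and Col27a1. The difference was below 0 for 42 of the 43 collagens, with a median of -0.81 against -0.07 over all tested genes. Under the criteria of the study 12 were lower, adding Col2a1, Col4a2 and Col17a1, against 1296 of all 16077 tested genes. With the replicate number as a block, 17 collagens passed the adjusted threshold. Without HC control replicate 2 it was 7, where 3.02% of all tested genes were called lower. It was 5 without NHC control replicate 3 or without NHC gentamicin replicate 1. After subtraction of the mesenchyme marker share described above, 3 of the 9 were called (Col5a1, Col16a1 and Col27a1). Col8a1 was called there too, but had no HC level left, so that its value of -0.64 is its change in NHC with the sign turned. For the block, the subtraction and the fits without an NHC replicate, the percent of all tested genes called is not given here. Their counts alone do not set collagens apart from other genes. For Col27a1 the difference was -0.97 ± 0.15 SE (adjusted p = 0.00375) and for Col16a1 -1.03 ± 0.21 SE (adjusted p = 0.0103). In NHC, Col27a1 scored 564, 527 and 605 without and 629, 659 and 584 with gentamicin, and Col16a1 424, 483 and 449 and then 492, 494 and 428, so their groups overlapped there.

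For the type VI chains the differences were -1.45 ± 0.27 SE for Col6a1, -1.52 ± 0.35 SE for Col6a2, -1.71 ± 0.39 SE for Col6a3 and -0.78 ± 0.21 SE for Col6a6 (adjusted p = 0.00793, 0.0185, 0.0177 and 0.0336 by limma). In NHC, Col6a1 scored 543, 540.1 and 475 and then 561, 739 and 564, Col6a2 464, 402 and 375 and then 448, 697 and 463, and Col6a3 496, 558 and 407 and then 549.6, 534 and 473. Col6a6 scored 187, 219 and 176 in NHC control and 185, 179 and 188 in NHC gentamicin. Only the Col6a1 replicates were separate there, all 3 being higher with gentamicin, and its adjusted p in NHC was 0.538.

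Col5a1, Col5a2 and Col4a1 had differences of -1.22 ± 0.30 SE, -1.62 ± 0.47 SE and -1.08 ± 0.33 SE (adjusted p = 0.0231, 0.0417 and 0.0493 by limma). Their NHC scores were 608, 769 and 574 and then 629, 594 and 632 for Col5a1, 318, 368 and 251 and then 312, 442 and 251 for Col5a2, and 1426, 1916 and 1641 and then 1509.9, 1562 and 1637 for Col4a1. The call of Col4a1 held in 2 of 12 fits that left out a replicate and that of Col5a2 in 3, those of Col6a6 and Col5a1 in 5 and 8, and the other 5 calls in 12. The remaining collagens of high level in NHC were not called for the difference. Col2a1 (-1.14, adjusted p = 0.0602 by limma) and Col4a2 (-0.85, adjusted p = 0.0590) lay just outside the threshold. With gentamicin, NHC scored 9490.3, 12194 and 10231 for Col2a1, 3323, 3922 and 2902 for Col3a1, 2927, 4104 and 2139 for Col1a2, 1045, 1081 and 1225 for Col4a2 and 738, 600.0 and 1175 for Col18a1. The cartilage chains Col9a1, Col9a2, Col9a3 and Col11a2 were at 1045 ± 120.5, 1567 ± 245, 1308 ± 197 and 1602 ± 229. Each of these groups overlapped its control.

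**Figure D4:**
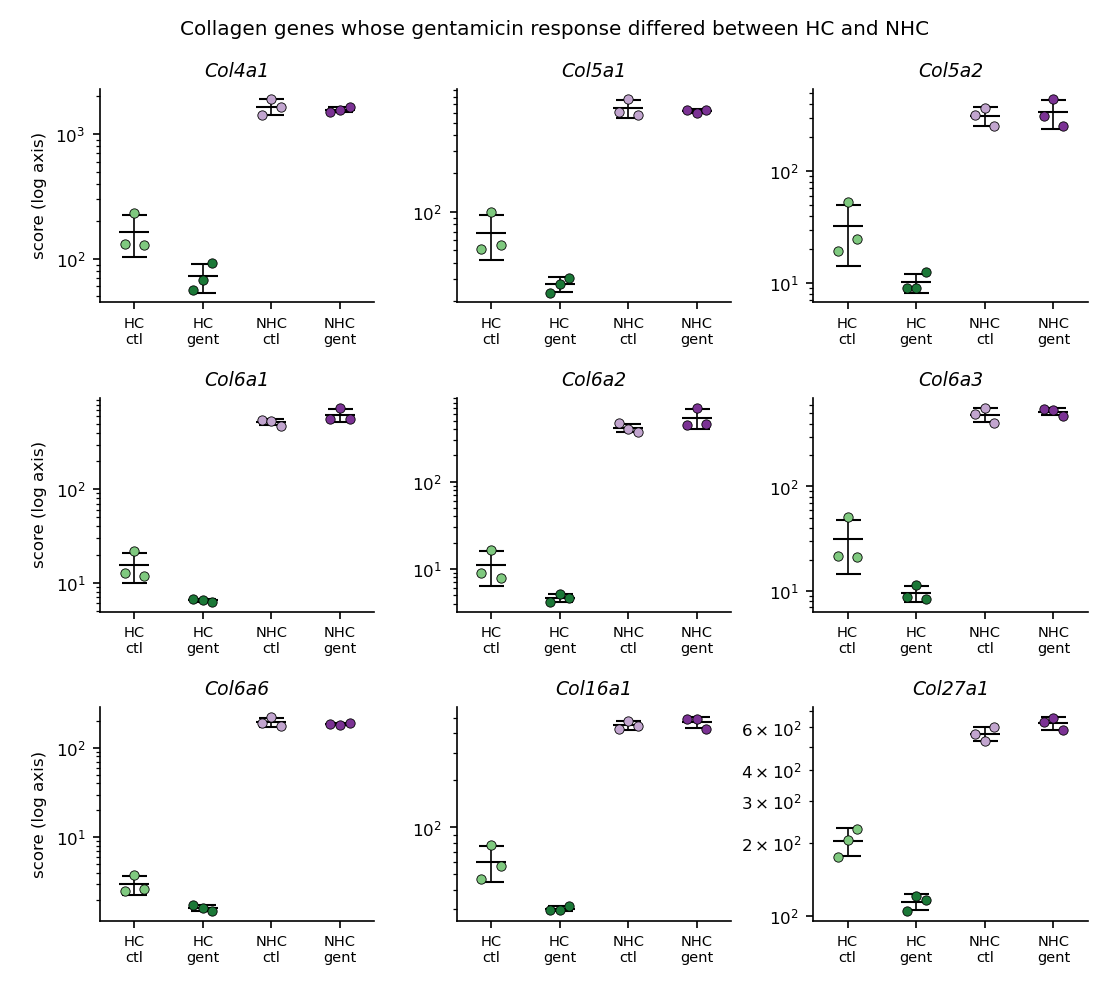
Scores (log axis, a scale of its own for each gene) of the 9 collagen genes whose gentamicin response differed between populations, 1 point per replicate, with the mean and SD of 3 replicates as lines, in HC and NHC control (ctl) and gentamicin (gent). HC gentamicin points lie below HC control points in all 9 panels, and NHC points sit far above both.

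Ratios between chains of 1 collagen type differed in range between the populations for some pairs and overlapped for others. Per kb of coding length, Col1a1 was at 0.0489 to 0.0713 of Col1a2 in NHC control and at 0.265 to 0.510 in HC control. Whether the low Col1a1 score reflects its RNA level was not tested, so this ratio is uncertain. The ratio of Col9a1 to Col9a2 was 0.404 to 0.511 in NHC control and 0.140 to 0.193 in HC control, and that of Col9a3 to Col9a2 0.701 to 0.809 and 0.309 to 0.347. Ranges of the replicates were separate in these cases. Col4a1 over Col4a2 was 1.47 to 1.49 in NHC control, 1.16 to 1.35 in HC control and 0.969 to 1.07 in HC gentamicin. Col6a1 over Col6a2 was 1.18 to 1.36 in NHC control and 1.34 to 1.60 in HC control, with ranges that overlapped. Those of Col4a3 over Col4a4 (0.493 to 0.652 and 0.460 to 0.553) and of Col5a1 over Col5a2 (1.56 to 1.87 and 1.54 to 2.24) overlapped as well. Each ratio uses the longest annotated coding length of both chains in every library, and no test was run on it.

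**Figure D5:**
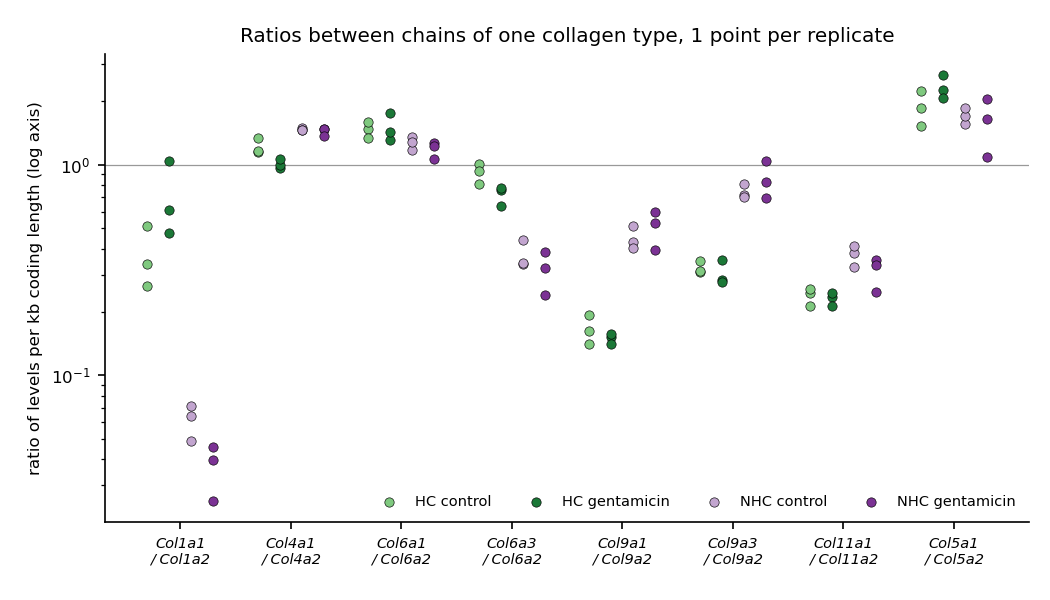
Ratios of the levels of 2 chains of 1 collagen type per kb of coding length (log axis), 1 point per replicate, in the 4 groups. Points of HC and NHC are apart for Col1a1 over Col1a2 and for the type IX chains, and overlap for Col5a1 over Col5a2.

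Genes that make, cut and bind collagen were taken as lists. Of all tested genes, 42.2% were lower and 31.9% higher in HC control than in NHC control, and 18.4% fell and 14.8% rose in HC after gentamicin. Without HC control replicate 2, 10.8% fell. Of 31 genes of collagen biosynthesis, 28 were lower and 2 higher in HC control than in NHC control by limma. Serpinh1, the collagen chaperone Hsp47, scored 120 ± 25.2 in HC control and 1137 ± 137 in NHC control, and Pcolce, an enhancer of procollagen C-proteinase, 6.52 ± 2.67 and 180.3 ± 51.7. Mia3, which helps to load procollagen into transport vesicles, was one of the 2 higher in HC (268 ± 4.02 against 144 ± 8.30). After gentamicin, 14 of the 31 fell in HC and 0 rose, with a median log2 fold change of -0.56 against -0.09 over all tested genes, and 9 fell without HC control replicate 2. The largest decreases were those of Loxl2, a lysyl oxidase that cross-links collagen (47.5 ± 3.16 to 14.9 ± 10.2, adjusted p = 0.0129), P4ha2, a prolyl 4-hydroxylase subunit (39.2 ± 12.9 to 12.7 ± 7.71, adjusted p = 0.0234), Loxl1 and Plod2, a lysyl hydroxylase. P4ha2 and Plod2 were not called without that library. The difference between the populations passed for Loxl1, Fkbp10, Leprel2 and Fkbp14, and without that library for Fkbp10 alone, and no gene of the list was called in NHC.

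Of 13 tested genes of collagen turnover, 13 were lower in HC control. After gentamicin 5 fell in HC (median -0.35), among them Mmp2, a gelatinase (43.6 ± 21.1 to 18.0 ± 2.23, adjusted p = 0.0105 by limma), and Mrc2, an endocytic collagen receptor (17.0 ± 6.07 to 6.91 ± 0.166). Of 8 tested collagen receptors, 5 were lower in HC control and 3 fell after gentamicin in HC (median -0.49), including Itgb1, the integrin beta 1 chain (126 ± 10.1 to 83.0 ± 11.3, adjusted p = 0.00172), and Ddr2, which was not called without HC control replicate 2. In the cartilage list, Sox6 was higher in HC (77.5 ± 1.99 against 22.9 ± 8.18) and 6 of 8 were lower. Sox9, a transcription factor known to drive Col2a1 in cartilage, fell in HC from 182 ± 11.3 to 91.5 ± 29.8 (adjusted p = 0.00239), and 5 of the 8 fell there (median -0.67), with Sox5, Lect1 and Matn1 among them. Without HC control replicate 2, 4 turnover genes, 2 receptors and 2 genes of the cartilage list (Matn1 and Sox9) fell.

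Of 20 other genes of the fibrous matrix, 19 were lower and 1, Tnc (tenascin C), was higher in HC control, at 3839 ± 103 against 303 ± 11.9. After gentamicin 13 fell in HC, with a median of -0.87, and 8 without HC control replicate 2. Hspg2, the perlecan core protein of basement membranes, went from 142 ± 44.5 to 55.0 ± 16.1, Lamb1, a laminin chain, from 58.1 ± 26.2 to 23.0 ± 5.33, and Fn1, fibronectin, from 86.4 ± 41.6 to 35.6 ± 5.30. Fn1 was not called without that library. No gene of the turnover, receptor, cartilage or fibrous matrix lists was called in NHC gentamicin. Dcn, Lum and Ogn stand in both the fibrous matrix list and the mesenchyme markers.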

How the data were processed

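RNA was sequenced from 12 libraries, 3 per group. The authors aligned trimmed reads to the mm10 assembly with TopHat2, as the submitters' processing notes also list, and deposited a normalized read score per gene and replicate. Their methods describe division by gene length, which the deposited scores do not carry. The value of 1 read in each library was set from its most frequent score above the offset of 1. With the offset removed, 82.9% to 83.9% of low values were whole multiples of that value, within 0.1 of a read. Depth was 22400368 to 28151828 reads on genes, which leaves genes of few reads imprecise. The low scores of a gene understate its fold change because of the offset.

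Log2 scores of all 12 libraries entered 1 limma fit (version 3.58.1, R 4.3.3), with 4 group means, empirical Bayes with a trend and Benjamini-Hochberg adjustment over the 16077 genes with at least 100 reads. Contrasts were HC against NHC control, gentamicin against control in each population, and the difference of the 2 responses, all two-sided and called at an adjusted p under 0.05. Tables were handled with pandas 2.3.3 and numpy 2.4.6 in Python 3.11.15, and figures drawn with matplotlib 3.10.9. Gene positions and lengths are those of GENCODE M21 (GRCm38). Levels per kb and percents of NHC were computed after removing the offset. Whether counting used strand is not given in the sources used here, so values of the overlapping genes Col4a1 and Col4a2 are uncertain by the reads near their starts.

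The collagens and lists were chosen with earlier results of these data known. Any collagen could be named, with replicate values for those called in a gentamicin contrast or in the difference and for the 10 highest per kb in NHC control. Genes of the lists were named by the 4 largest called changes per list, contrast and direction, if the higher group reached a mean score of 5. Same-numbered libraries deviated together between HC control and NHC control (correlations of 0.216, 0.316 and 0.200 over genes), but not between control and gentamicin in HC (0.0369, 0.0523 and 0.0369) or in every NHC pair (0.208, -0.232 and 0.683), and the labels do not say what a number marks.

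In simulated data with 200 of 16077 genes changed by a log2 of 1 in HC gentamicin against control, limma called 84.5% of these and 6 others. Alternatives were other scalings, offsets and filters, the replicate block, the compared groups alone, no trend, the criteria of the study, subtraction of the mesenchyme marker share and each replicate left out. Coding instead of merged exon length, and the counts of classes, lists and markers without HC control replicate 2, were added after the data were seen. No sample was left out. The Partek test of the study was not used here.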

Additional observations from a re-analysis of the deposited data

Results flagged for a closer look

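For 9 collagens the gentamicin response, on the log2 scale, differed between HC and NHC by a test of the difference itself (limma, adjusted p under 0.05), each with a lower value in HC. The differences, HC minus NHC, were -1.08 for Col4a1, -1.22 for Col5a1, -1.62 for Col5a2, -1.45 for Col6a1, -1.52 for Col6a2, -1.71 for Col6a3, -0.78 for Col6a6, -1.03 for Col16a1 and -0.97 for Col27a1. The calls of Col16a1 and Col27a1 were present in 9 of 9 other settings and in 12 of 12 fits without a replicate. After subtraction of the mesenchyme marker share those of Col5a1, Col16a1 and Col27a1 were present. Those of Col6a1, Col6a2 and Col6a6 were not, with HC values all at the offset. Nor were those of Col4a1 (-0.996, adjusted p = 0.187 by limma), Col5a2 (-2.59, adjusted p = 0.0556) and Col6a3 (-2.03, adjusted p = 0.216), whose differences were about as large or larger than without subtraction. The subtraction left Col6a3 at the offset in every HC gentamicin library and in HC control replicate 3, and Col5a2 in HC gentamicin replicate 2. The larger values of Col5a2 and Col6a3 thus depend in part on that floor.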

How the results depend on the processing

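Numbers of called collagens moved by more than 1.5 times in few settings. With a replicate left out, the number that fell in HC ranged from 13 (without HC control replicate 2) to 23, with 14 without HC gentamicin replicate 2, where 1 collagen, Col13a1, was called higher (0 to 1 over these fits). The number with a lower response in HC than in NHC ranged from 5 (without NHC control replicate 3, or without NHC gentamicin replicate 1) to 13. Without HC control replicate 2, calls over all tested genes moved as well, from 18.4% to 10.8% lower in HC after gentamicin. For the difference between populations they moved from 6.57% to 3.02% lower. Subtracting the mesenchyme marker share left 9 that fell in HC and gave 4 with a lower response in HC, of which 3 were among the 9 and 1, Col8a1, was new, and turned the difference of Col6a6 to 0.072. The criteria of the study called 1 collagen, Col17a1, higher in NHC. With the replicate block, 17 collagens had a lower response in HC, 27 fell in HC and 0 were called in NHC, and it changed no call of HC against NHC control. The percent of all tested genes called is not given for the block, the subtraction or the other leave-out fits. The shifts in their counts therefore cannot be read as a result about collagens. The remaining counts, with HC against NHC control at 36 to 37 lower and 3 higher over the other scalings, stayed within 1.5 times. Causes of these shifts were not tested, except that the subtraction by its construction removes genes at or under the marker share. Collagens with under 1000 reads in all, 7 of 44, are measured too shallowly to show small differences.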
